A study of Mus musculus with 8 samples.

Results

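Interferon response genes are genes whose transcription cells raise on contact with interferon, the cytokine that warns of virus infection. Type I interferon binds the receptor Ifnar1/Ifnar2, whose kinases Jak1 and Tyk2 activate transcription factors, Stat2 among them. A complex that holds Stat2 and Irf9 binds the interferon-stimulated response element (ISRE) of its target genes, while Irf1 acts downstream of interferon gamma. Many cells keep part of this programme at a low level without infection. The 34 members described here were chosen by gene symbol and comprised 4 transcription factors, 5 sensors of viral RNA or DNA, 5 genes of the OAS family, 3 of the IFIT family, 3 of the Isg15 system, 6 antiviral effectors, 2 guanylate-binding proteins and 6 other induced genes. Each matched 1 of the 50686 gene rows, and 33 of the 34 were among the 13644 genes that passed a filter on low counts. Ifi44 did not pass, with 8 counts in all 8 libraries together.

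The cells were group 2 innate lymphoid cells (ILC2), lymphocytes that make type 2 cytokines, taken from thymi of plck-Id1 animals on the C57BL/6 background. Id1 is an inhibitor of E proteins such as E47, and plck is the proximal promoter of the lymphocyte kinase gene Lck, so every group, controls included, carried the inhibitor. Stimulation was with a cytokine mix that held IL-33, IL-25 and IL-7, after which cells were transduced with MIGR1 retrovirus that gave GFP alone or GFP with E47-ER, a fusion of E47 to the estrogen receptor that 4-hydroxytamoxifen activates. They were then sorted for GFP and expanded. All groups received the drug, for 4 h or 16 h, and each of the 4 groups (GFP 4 h, E47-ER 4 h, GFP 16 h, E47-ER 16 h) had 2 libraries of total RNA. No drug-free E47-ER library was analysed here, and the labels give neither the age of the mice nor whether the 2 libraries of a group came from separate animals or cultures. The p-values therefore cover no more than the variation among these 8 libraries.

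Libraries held 8813782 to 18677675 counts, and levels are CPM, counts divided by the scaled size of their library, listed in the order GFP 4 h libraries 1 and 2, E47-ER 4 h libraries 1 and 2, GFP 16 h libraries 1 and 2, E47-ER 16 h libraries 1 and 2. GFP 16 h library 2 stood apart: it was the shallowest, correlated on average at 0.961 with the 7 others (0.984 to 0.987 for those) and had a scaling factor of 0.854 (1.01 to 1.03 for those). Esr1, part of the construct, was at 43.8 to 54.5 CPM in the E47-ER libraries and at 0.211 to 0.932 CPM in the GFP libraries. All 14 ILC2 markers passed the filter, among them Il13 at 5610 to 9850 CPM and Gata3 at 865 to 1480 CPM. Some defining markers of other cells had 0 CPM in all 8 libraries: Siglech of plasmacytoid dendritic cells, Clec9a of conventional dendritic cells, C1qa of macrophages, Ncr1 of NK cells and Fcer1a of mast cells. Other genes of the same lists were present, such as Gzma at 2890 to 7890 CPM, Mcpt8 at 22.8 to 132 CPM, Xcr1 at 42.3 to 127 CPM, Cd74 at 21.9 to 64.4 CPM and Prf1 at 25.4 to 47.1 CPM. The filter was passed by 5 of 9 plasmacytoid and 6 of 8 conventional dendritic cell genes, 4 of 12 myeloid, 2 of 7 NK, 5 of 9 T cell, 1 of 7 B cell, 2 of 6 mast cell and basophil and 2 of 11 thymic stroma genes, and their part in the results was not tested.

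Promoters of part of the members held the ISRE, the element through which interferon acts on its target genes. A list of interferon response genes makes a high share likely from the outset, so the share describes the list. RefSeq (GRCm38.p6) gave a promoter, 250 bases before to 50 bases after the start, for 26 of the 34 members. The ISRE core GAAANNGAAA, or TTTCNNTTTC on the other strand, was present in 14 of these 26 members (53.8%), against 3.99% of all genes with a promoter. The interferon gamma motif GAS, TTCNNNGAA, stood in 7 of 26 (26.9%, against 9.55%), and the E-box CANNTG, the motif that E proteins bind, in 20 of 26 (76.9%, against 75%). Matching letters describe a sequence and do not show a bound site. Shown here are 120 bases for 6 members whose values are followed below, directly before the start for 5 of them and from 174 to 55 bases before it for Bst2, 5′ to 3′ on the gene's strand, with ISRE matches, overlapping ones joined, in capitals.
Ifit1, chr19:34640769-34640888, plus strand: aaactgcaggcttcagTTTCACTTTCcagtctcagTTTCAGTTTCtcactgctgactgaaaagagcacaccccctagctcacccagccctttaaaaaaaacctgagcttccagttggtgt
Oas3, chr5:120777660-120777779, minus strand: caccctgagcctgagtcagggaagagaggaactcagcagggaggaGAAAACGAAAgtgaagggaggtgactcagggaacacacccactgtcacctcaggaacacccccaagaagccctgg
Isg15, chr4:156200819-156200938, minus strand: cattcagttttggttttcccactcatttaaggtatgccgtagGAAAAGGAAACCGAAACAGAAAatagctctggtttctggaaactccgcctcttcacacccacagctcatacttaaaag
Rsad2, chr12:26456453-26456572, minus strand: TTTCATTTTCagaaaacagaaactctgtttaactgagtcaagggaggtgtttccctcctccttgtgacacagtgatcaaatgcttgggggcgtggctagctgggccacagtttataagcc
Gbp2, chr3:142620543-142620662, plus strand: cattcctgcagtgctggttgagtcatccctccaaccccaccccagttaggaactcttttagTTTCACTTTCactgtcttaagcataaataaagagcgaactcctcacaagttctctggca
Bst2, chr8:71537527-71537646, minus strand: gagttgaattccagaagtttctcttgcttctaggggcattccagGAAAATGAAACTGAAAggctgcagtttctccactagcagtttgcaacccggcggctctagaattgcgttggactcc
Ifit1 held 2 separate matches, Isg15 3 overlapping ones and Bst2 2 overlapping ones, and Oas3, Rsad2 and Gbp2 held 1 each.

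No member was called in any comparison. E47-ER against GFP at 4 h gave 39 called genes of 13644 (0.286%) and none of the 33 members by edgeR's quasi-likelihood test, with an adjusted p under 0.05 as the call. E47-ER against GFP at 16 h gave 217 (1.59%) and again no member. The difference between these effects called no gene of any kind (0%), nor did 16 h against 4 h in GFP cells (0%), and 16 h against 4 h in E47-ER cells called 2 genes (0.0147%), neither a member. At an unadjusted p under 0.05 there was no member at 4 h (5.82% of all genes), 5 at 16 h (24%), none in the difference (4.92%), 2 over time in GFP cells (9.07%) and 1 over time in E47-ER cells (5.09%). DESeq2 also called no member in any of the 5 comparisons. In bulk RNA a change in the number of cells that express a gene and a change in its RNA per cell cannot be told apart.

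The members showed a gap between the 2 libraries of a group that ran mostly one way. That single GFP libraries differ in these genes was known when the members were chosen. The values of all genes set beside the members are therefore a description and no test of the gap. In GFP cells at 4 h, 30 of 33 members were higher in library 1 than in library 2, with a median log2 ratio of 0.60, against 49.6% of all genes and a median of -0.00157. At 16 h in GFP cells 29 of 33 were higher in library 1 (median 0.68, all genes 50.5%), and at 16 h in E47-ER cells 31 of 33 (median 0.38, all genes 48.2%). In E47-ER cells at 4 h the gap was small, with 23 of 33 members higher in library 1 (median 0.06, all genes 52.3%). The number that lay above the 95th percentile of all genes was 21 in GFP 4 h, 6 in E47-ER 4 h, 14 in GFP 16 h and 16 in E47-ER 16 h. Library 1 was higher in all 4 groups for 17 members, against 8.06% of all genes, in 3 groups for 14 members, in 2 for Isg15 and in 1 for Irf1.

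**Figure D1:**
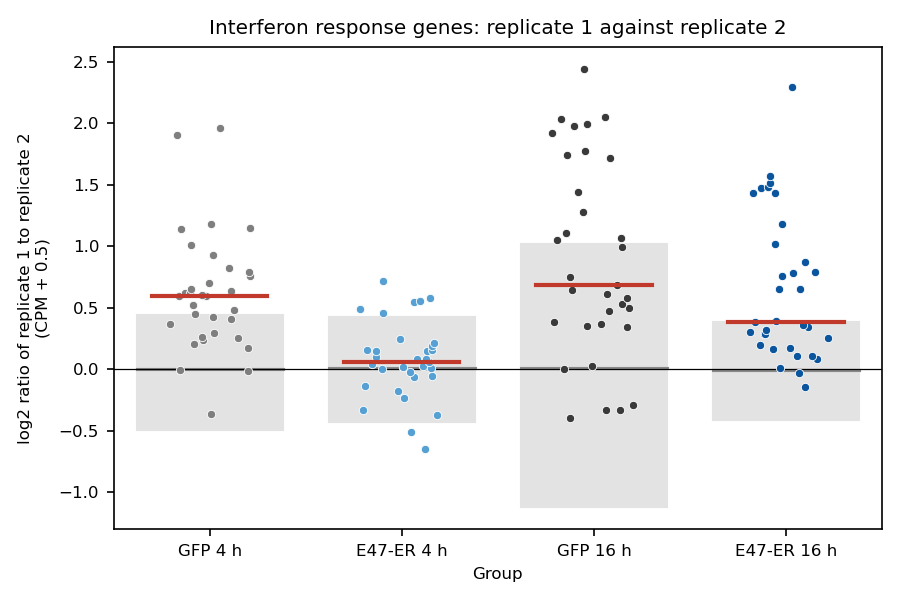
Log2 ratio of library 1 to library 2 of each group, on CPM + 0.5. Points are the 33 members, spread sideways at random, the red bar is their median, the grey box spans the 5th to 95th percentile of all 13644 genes tested and the grey line is their median. Members lie mostly above 0 in GFP 4 h, GFP 16 h and E47-ER 16 h, and around 0 in E47-ER 4 h.

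The labels do not say that a library number marks a shared animal, day or batch, and what differed between the libraries was not tested. Gzma, a granule protease gene that is no member, went the other way, with library 2 higher in each of the 4 groups. Its CPM were 3020 and 3500, 5270 and 7890, 2890 and 7490, and 6370 and 7890. Library 1 was likewise higher in no group for 7.77% of all genes. Among 74 tested interferon-stimulated genes outside the 34, library 1 was higher in 61, 55, 53 and 59 in the same order of groups. Splitting the members by transcript length gave the same side in E47-ER 16 h (10 of 11 short, 15 of 15 middle and 6 of 7 long members) and in GFP 4 h (11 of 11, 13 of 15 and 6 of 7). In GFP 16 h the counts were 8 of 11, 14 of 15 and 7 of 7, and in E47-ER 4 h 8 of 11, 9 of 15 and 6 of 7. Among all genes library 1 was higher in 30.2% of the short and 68.4% of the long ones in GFP 16 h. These shares were 42.1% and 56.9% in GFP 4 h and 41.5% and 63.1% in E47-ER 4 h. They ran the other way in E47-ER 16 h, at 56.8% and 37.9%. Length thus moved with the library in each group, most in GFP 16 h. The 3 short members that went against the rest in GFP 16 h were Isg15, Bst2 and Ifi35.

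By library, E47-ER 16 h library 1 held the highest value for 16 of 33 members, against 8.36% of all genes. GFP 4 h library 1 did so for 8 (8.11% of all genes) and GFP 16 h library 1 for 6 (8.84%). GFP 16 h library 2 did so for 3, against 34.9% of all genes. The lowest value fell in GFP 16 h library 2 for 22 members, against 35% of all genes, and in E47-ER 4 h library 2 for 7, against 8.74%. The median member lay 0.36 above its own mean on the log2 scale in GFP 4 h library 1, 0.31 above in GFP 16 h library 1 and 0.41 above in E47-ER 16 h library 1. It lay at -0.55 in GFP 16 h library 2, at -0.25 in E47-ER 4 h library 2 and between -0.21 and -0.10 in the other 3.

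**Figure D2:**
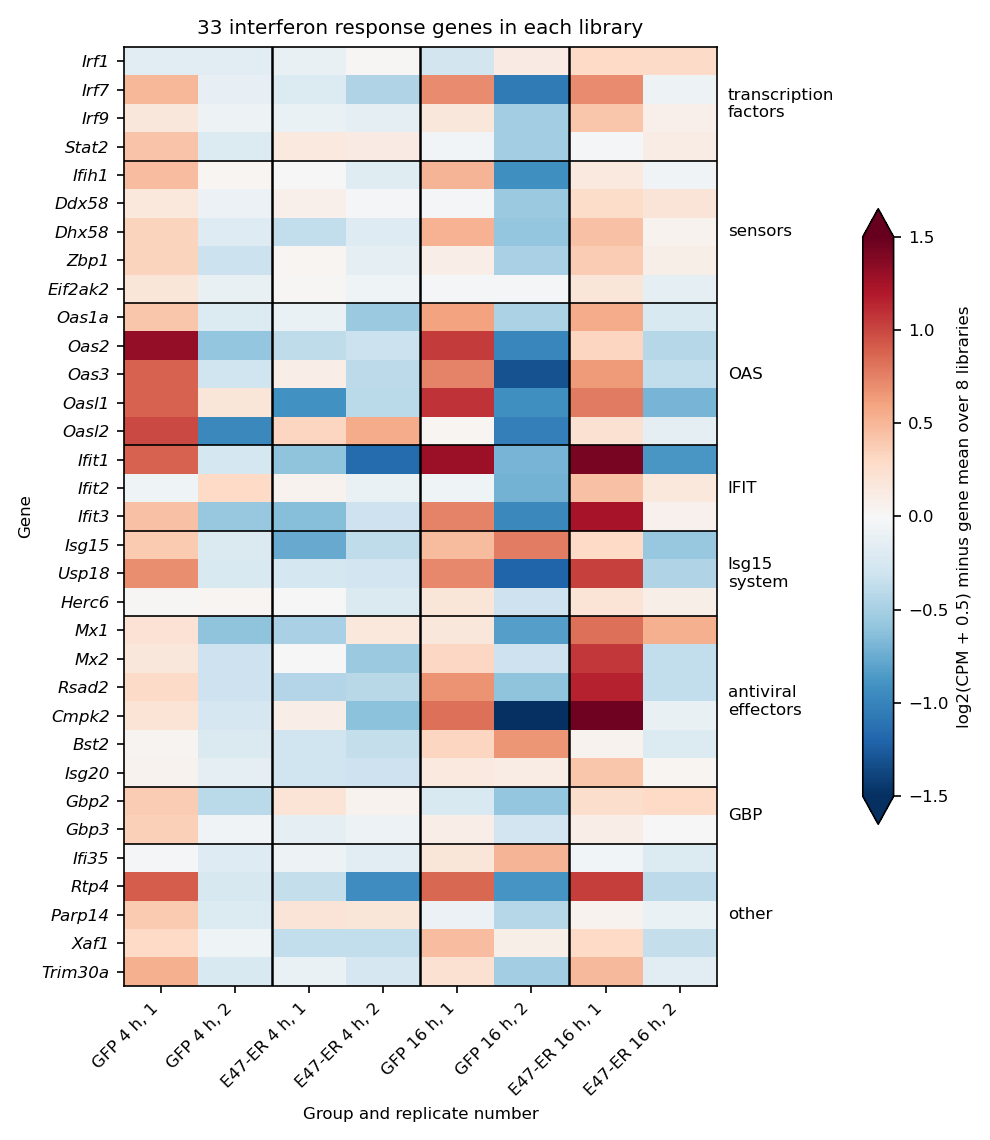
Each cell is the log2(CPM + 0.5) of a member in a library minus the member's mean over the 8 libraries, with rows grouped by role and columns by group and library number. Mostly red columns are GFP 4 h, GFP 16 h and E47-ER 16 h library 1. GFP 16 h library 2 is blue for most rows, red for Isg15, Bst2 and Ifi35 and faintly so for Irf1, Isg20 and Xaf1.

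Transcription factors of the response were well expressed. Irf7, which amplifies type I interferon production and is itself interferon-induced, measured 58.7, 38, 36, 30.2, 68.2, 19.7, 68 and 39.2 CPM. Both E47-ER 4 h libraries were below both GFP 4 h libraries, whereas at 16 h the groups overlapped because the GFP libraries differed 3.46-fold. Its log2 fold change was -0.54 (SE 0.51) at 4 h and 0.26 (SE 0.51, adjusted p 0.757) at 16 h. Irf9, the DNA-binding part of the ISRE-binding complex, measured 69, 57.9, 57, 55.5, 68.7, 42.6, 81.9 and 64.4 CPM, with log2 fold changes of -0.17 (SE 0.23) at 4 h and 0.39 (SE 0.23, adjusted p 0.319) at 16 h. Stat2, its partner, measured 71.1, 45.5, 58.2, 57.3, 51.1, 36.6, 51.5 and 56.8 CPM and gave -0.01 (SE 0.23) and 0.30 (SE 0.23, adjusted p 0.436).

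Irf1, an early target of interferon gamma, measured 138, 138, 143, 157, 128, 168, 190 and 189 CPM, with library 2 as high as or above library 1 in all groups but E47-ER 16 h. Both E47-ER libraries were above both GFP libraries at each time, and the log2 fold change was 0.12 (SE 0.15) at 4 h and 0.36 (SE 0.15, adjusted p 0.2) at 16 h. Without GFP 16 h library 2 the 16 h value was 0.56. Without GFP 16 h library 1 it was 0.18, and each of these values is against 1 GFP library.

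All 5 sensors were expressed. Ddx58 (RIG-I), a sensor of viral RNA, measured 108, 91.2, 102, 95.1, 95.5, 65.9, 117 and 111 CPM, and both E47-ER 16 h libraries exceeded both GFP 16 h libraries. Its log2 fold change was -0.01 (SE 0.19) at 4 h and 0.49 (SE 0.19, adjusted p 0.176) at 16 h. Against 1 GFP library the 16 h value was 0.25 without GFP 16 h library 2 and 0.79 without GFP 16 h library 1. Ifih1 (MDA5), which binds long double-stranded RNA, measured 17.4, 12.8, 12.6, 11, 18.1, 6.39, 13.9 and 12.1 CPM, with -0.36 (SE 0.39) at 4 h and 0.03 (SE 0.40, adjusted p 0.968) at 16 h. Zbp1, a sensor of Z-form nucleic acid, measured 108, 68.3, 86.8, 77.9, 91.5, 61, 111 and 90.4 CPM, with -0.10 (SE 0.26) and 0.40 (SE 0.26, adjusted p 0.354). Eif2ak2 (PKR), the kinase that halts translation on double-stranded RNA, was the steadiest member and spanned 48.4 to 60.4 CPM, with -0.07 (SE 0.16) and 0.07 (SE 0.16, adjusted p 0.812). Dhx58 (LGP2), a regulator of the RNA sensors, ran from 9.59 to 21.2 CPM.

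The OAS family makes 2-prime-5-prime oligoadenylates that switch on RNase L, and its median log2 ratio of library 1 to library 2 was 1.18 in GFP 4 h, 1.99 in GFP 16 h and 0.79 in E47-ER 16 h, but -0.06 in E47-ER 4 h. Oas3 measured 26.8, 11.5, 15.3, 10.7, 24.3, 5.46, 22.6 and 10.9 CPM, so library 1 was 2.33-fold, 1.43-fold, 4.44-fold and 2.07-fold above library 2 in the 4 groups. Its log2 fold change was -0.55 (SE 0.64) at 4 h and 0.11 (SE 0.65, adjusted p 0.926) at 16 h. Oasl2, an OAS-like gene, measured 6.39, 1.27, 3.84, 4.61, 3.02, 1.2, 3.54 and 2.66 CPM, with 0.16 (SE 0.64) and 0.45 (SE 0.71, adjusted p 0.701). Its 2 GFP 4 h libraries differed 5.03-fold and enclosed both E47-ER 4 h libraries. Oasl1, the other OAS-like gene, measured 6.32, 3.7, 1.47, 2.3, 7.32, 1.46, 5.88 and 1.79 CPM and gave -1.41 (SE 0.75) at 4 h with no overlap of groups, but had no consistent side at 16 h. Oas1a ran from 6.98 to 16.3 CPM and shares 57.6% of its 50-base stretches with Oas1g, so its counts are uncertain. Oas2 had 80 counts in all and was listed at 0 in GFP 16 h library 2, where a count of 0 allows up to 0.399 CPM.

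IFIT proteins bind foreign RNA, and Ifit1 showed the widest gap of all members averaged over the groups. Ifit1 measured 8.6, 3.59, 2.75, 1.73, 11.5, 2.53, 12.7 and 2.19 CPM. Library 1 was 2.39-fold above library 2 in GFP 4 h, 1.59-fold in E47-ER 4 h, 4.54-fold in GFP 16 h and 5.78-fold in E47-ER 16 h. Both E47-ER 4 h libraries were below both GFP 4 h libraries (log2 fold change -1.42, SE 0.93), and at 16 h the groups overlapped with a log2 fold change of -0.01 (SE 0.84, adjusted p 0.996). Ifit3 was rare, with 75 counts in all, at 0.822, 0.159, 0.128, 0.288, 1.14, 0, 1.8 and 0.519 CPM, and gave -1.17 (SE 1.36) and 0.70 (SE 1.03, adjusted p 0.676). It shares 51.2% of its 50-base stretches with Ifit3b, so its counts are uncertain too. Ifit2 ran from 1.2 to 3.27 CPM and was above both GFP libraries in both E47-ER libraries at 16 h.

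**Figure D3:**
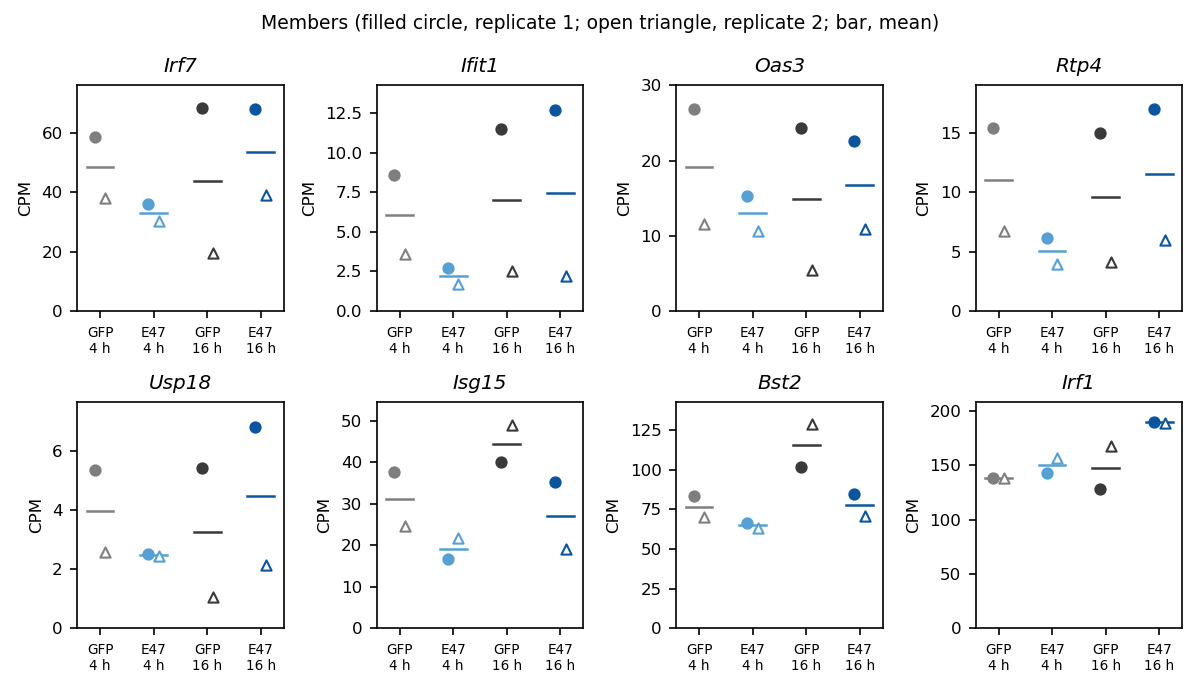
CPM of 8 members in each library (filled circle, library 1; open triangle, library 2; bar, mean of 2), on axes from 0. Irf7, Ifit1, Oas3, Rtp4 and Usp18 repeat one shape with library 1 on top in all 4 groups, while Isg15 and Bst2 have GFP 16 h library 2 on top and Irf1 does not repeat it.

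Isg15, a ubiquitin-like protein that is joined to other proteins, measured 37.6, 24.6, 16.7, 21.7, 40, 48.9, 35.2 and 19 CPM. The E47-ER libraries were below the GFP libraries at both times, with log2 fold changes of -0.69 (SE 0.32) at 4 h and -0.71 (SE 0.32, adjusted p 0.215) at 16 h. Leaving out 1 library moved the 16 h value from -1.22 (without E47-ER 16 h library 1) to -0.33 (without E47-ER 16 h library 2), and the 4 h value from -0.97 to -0.36. Usp18, which removes Isg15 and dampens the interferon receptor, measured 5.37, 2.59, 2.5, 2.45, 5.44, 1.07, 6.81 and 2.14 CPM and gave -0.67 (SE 0.72) and 0.32 (SE 0.71, adjusted p 0.79). Herc6, the ligase that attaches Isg15 in mice, was flat at 18.2 to 26.3 CPM, and 12% of its 50-base stretches also occur in the readthrough gene Gm45193.

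Bst2 (tetherin), which holds budding virus at the cell surface, had the highest level per kilobase of exon of all 34 members, at 92.7 CPM per kb on average. It measured 83.7, 69.9, 66.2, 63.5, 102, 129, 84.5 and 70.8 CPM, and the E47-ER libraries were below the GFP libraries at both times. The log2 fold change was -0.24 (SE 0.17) at 4 h and -0.57 (SE 0.17, adjusted p 0.132) at 16 h, the lowest adjusted p of any member at 16 h. Without GFP 16 h library 2, in which Bst2 was highest, the 16 h value was -0.41. Without GFP 16 h library 1 it was -0.73, and each of these values is against 1 GFP library. Isg20, an RNA exonuclease, measured 30.3, 26.3, 23.8, 23.6, 32.4, 31.8, 39.1 and 29.9 CPM, with -0.26 (SE 0.16) at 4 h and 0.10 (SE 0.16, adjusted p 0.706) at 16 h.

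Mx1, a gene of the GTPase family of that name, was low, at 2.72, 1.32, 1.47, 2.59, 2.62, 1.07, 4.41 and 3.52 CPM. Both E47-ER libraries were above both GFP libraries at 16 h, with log2 fold changes of 0.02 (SE 0.50) at 4 h and 1 (SE 0.49, adjusted p 0.245) at 16 h, the largest positive value of any member at that time. Rsad2 (viperin), which makes a chain-terminating nucleotide, measured 2.66, 1.59, 1.41, 1.44, 3.63, 1.2, 5.21 and 1.5 CPM, with -0.56 (SE 0.68) and 0.36 (SE 0.64, adjusted p 0.735). Cmpk2, the neighbour of Rsad2 on chromosome 12, was highest in E47-ER 16 h library 1 at 3.74 CPM and listed at 0 in GFP 16 h library 2. Mx2 had 61 counts in all.

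Gbp2, a GTPase that coats intracellular pathogens, measured 67.6, 39, 59.8, 53.7, 43.9, 34.4, 62.2 and 63.6 CPM. Both E47-ER 16 h libraries were above both GFP 16 h libraries, and the log2 fold change was 0.09 (SE 0.25) at 4 h and 0.68 (SE 0.25, adjusted p 0.169) at 16 h. Gbp3 ran from 25.4 to 40.1 CPM. Rtp4, a chaperone of surface receptors, measured 15.4, 6.71, 6.14, 3.96, 15, 4.13, 17 and 6 CPM and gave -1.12 (SE 0.69) and 0.19 (SE 0.66, adjusted p 0.871). Its library 1 was 2.30-fold to 3.63-fold above library 2 in every group but E47-ER 4 h, where the ratio was 1.55, and 11.6% of its 50-base stretches also occur in Gm45338.

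Parp14, an ADP-ribosyltransferase, measured 112, 73.7, 96.8, 95.8, 79.8, 62.7, 88.2 and 78.8 CPM, with 0.06 (SE 0.21) at 4 h and 0.23 (SE 0.21, adjusted p 0.509) at 16 h. Trim30a ran from 44.2 to 92.2 CPM, with library 1 on top in each group. Xaf1, which promotes cell death, was below GFP in both E47-ER libraries at 4 h, at 24.2 and 24.2 against 38.7 and 29.9 CPM. Ifi35, which binds the interferon-induced protein Nmi, was at 67.2 and 59.6 CPM in E47-ER cells at 16 h against 78.3 and 98.4 CPM in GFP cells, and 16.8% of its exon bases overlap Gm11626 on the other strand. Ifi44 was at 0.19 CPM in GFP 4 h, 0.202 CPM in GFP 16 h and 0.134 CPM in E47-ER 16 h, in library 1 each time, and at 0 in the other 5 libraries. Per kilobase of exon the members spanned a wide range, from Bst2 through Ifi35 (40.5 CPM per kb), Isg15 (40.3), Irf1 (39.4), Zbp1 (24.6) and Gbp2 (21.1) down to Oas2 (0.145) and Mx2 (0.141) among those tested.

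At 4 h E47-ER stood below GFP for most members as a group, with no single one passing the test. Of 33 members, 28 had a negative and 5 a positive log2 fold change, with a median of -0.28 against -0.0043 over all genes, and adjusted p ran from 0.895 to 1. Both E47-ER libraries lay below both GFP libraries for 15 members (45.5%), against 22.9% of all genes, and above for Irf1 alone, against 22.4%. Those 15 members lay below GFP 4 h library 2 too. The split of signs and the median depended on GFP 4 h library 1. Without it the members split into 17 negative and 16 positive, with a median of -0.04, and Oas3 moved from -0.55 to 0.18, Usp18 from -0.67 to -0.07 and Oasl2 from 0.16 to 1.73. Isg15 kept a value of -0.36 and Ifit1 of -0.67 without that library. Without GFP 4 h library 2 the split was 31 negative to 2 positive (median -0.59).

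At 16 h the split ran the other way. Positive log2 fold changes were found for 26 members and negative ones for 7, with a median of 0.23 against -0.01 over all genes. Both E47-ER libraries were above both GFP libraries for 6 members, Gbp2, Ddx58, Stat2, Irf1, Mx1 and Ifit2 (18.2%, against 27.8% of all genes), and below for Isg15, Bst2 and Ifi35 (9.09%, against 26.6%). This split depended on 2 libraries. Without GFP 16 h library 2, 14 members were positive and 19 negative, with a median of -0.05, and Irf7 moved from 0.26 to -0.36, Ifih1 from 0.03 to -0.49 and Rtp4 from 0.19 to -0.41. Without E47-ER 16 h library 1 the counts were 12 positive and 21 negative, with a median of -0.10. In the fit without GFP 16 h library 2, 1247 genes were called, with Irf1 higher (4.52% of all genes were called higher) and Bst2 lower (4.62% were called lower) as the only members. Gbp2 (0.51) and Mx1 (0.58) kept positive values and Isg15 (-0.58) a negative one. Leaving out GFP 16 h library 1 instead, so that the library that stood apart was the only GFP one, called 6828 genes (24.6% higher, 25.5% lower), 9 members higher and 2 lower, with a member median of 0.87. The 9 were Ifih1, Ddx58, Herc6, Irf9, Dhx58, Mx1, Ifit2, Cmpk2 and Ifit3, the last 2 against a lone GFP library in which both had 0 counts, and the 2 were Bst2 and Ifi35. Without E47-ER 16 h library 2 the median was 0.53.

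**Figure D4:**
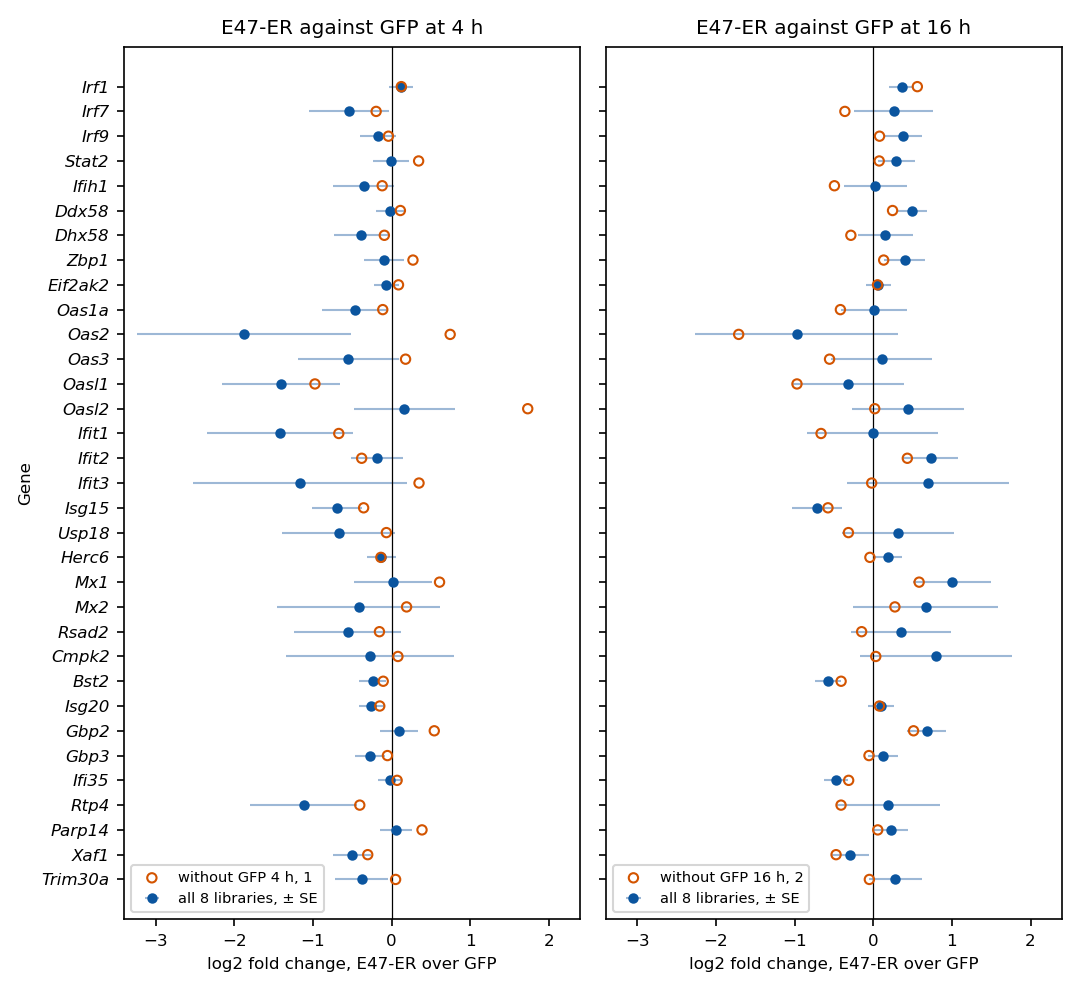
Log2 fold change of E47-ER over GFP for the 33 members at 4 h (left) and 16 h (right). Filled points with bars are the fit to all 8 libraries ± SE, and open circles the fit without GFP 4 h library 1 (left) or GFP 16 h library 2 (right). Open circles lie mostly to the right of the filled points at 4 h and to the left at 16 h.

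Over time, E47-ER cells had higher values at 16 h than at 4 h for 29 of 33 members, with a median of 0.38. Without E47-ER 16 h library 1 this was 21 of 33 with a median of 0.08, and without E47-ER 16 h library 2 it was 30 with a median of 0.68. Both 16 h libraries were above both 4 h libraries for 16 members (48.5%), against 25.9% of all genes, and below for Oasl2, Stat2 and Parp14 (9.09%, against 24.5%). Isg20 came nearest to the test with a log2 fold change of 0.54 (SE 0.16, adjusted p 0.962 in edgeR). The fit without GFP 16 h library 2, which leaves the E47-ER libraries as they are, called Isg20 (0.54, adjusted p 0.0238) and Irf1 (0.34, adjusted p 0.0221) among 415 genes (1.92% of all higher, 1.12% lower). In GFP cells 20 members had lower and 13 higher values at 16 h, with a median of -0.08, which was 0.34 without GFP 4 h library 1 and 0.35 without GFP 16 h library 2, and -0.31 and -0.67 without the other library of these groups. Isg15, Isg20, Bst2 and Ifi35 were higher in both 16 h libraries (12.1%, against 18.7% of all genes), and no member was lower in both (18% of all genes were). The difference between the E47-ER effects at 16 h and 4 h was positive for 30 of 33 members with a median of 0.54, with adjusted p from 0.699 to 0.991. That median was 0.15 without E47-ER 16 h library 1, 0.22 without GFP 16 h library 2 and 0.24 without GFP 4 h library 1. With neither of these GFP libraries it was -0.11. Without GFP 16 h library 1, which left 1 library in that group, it was 1.17.

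The rest of the pathway was described from lists of its parts. Of 21 interferon genes, 20 did not pass the filter, and Ifnb1 had 0 counts in every library. Ifng passed with 99 counts in all and measured 0.569, 0.581, 0.512, 0.792, 1.07, 1.6, 0.601 and 1.33 CPM, all close to the limit of detection. Of 6 receptor chains 5 passed the filter, and Ifnlr1, a chain of the interferon lambda receptor, had 0 counts in every library. With E47-ER at 16 h 2 of the 5 rose. Ifnar1, a chain of the type I receptor, measured 80.7, 78.5, 107, 105, 75, 58.7, 124 and 131 CPM. E47-ER libraries were above GFP libraries at both times, and the log2 fold change was 0.42 (SE 0.14, adjusted p 0.636) at 4 h and 0.92 (SE 0.15, adjusted p 0.024) at 16 h. Ifngr1, a chain of the interferon gamma receptor, measured 100, 134, 128, 134, 109, 104, 192 and 211 CPM and rose by 0.92 (SE 0.16, adjusted p 0.0329) at 16 h. Ifnar1 was called in only 9 of 19 alternatives and Ifngr1 in only 10 of 19. When 1 library was left out, the log2 fold changes stayed between 0.76 and 1.12 for Ifnar1 and between 0.85 and 0.98 for Ifngr1.

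The partner chains did not pass the test: Ifnar2 ran from 35.4 to 49.3 CPM (0.25 at 16 h, adjusted p 0.354) and Ifngr2 from 27.1 to 48.1 CPM (-0.47, adjusted p 0.243). None of the 11 receptor signalling genes was called at either time. Jak1 ran from 270 to 489 CPM, Tyk2 from 60.9 to 138 CPM and the inhibitor Socs1 from 464 to 767 CPM.

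Of 17 tested genes that sense nucleic acid or drive interferon production, Irf8 was called at both times. This transcription factor directs dendritic cell and macrophage development and measured 15.4, 20.7, 54.7, 52.2, 16.2, 11.9, 57.8 and 67.7 CPM. It rose by 1.56 (SE 0.20, adjusted p 0.0307) at 4 h and by 2.14 (SE 0.21, adjusted p 0.00381) at 16 h, with all E47-ER libraries above all GFP libraries. Its 4 h call was lost when any of 6 libraries was left out, with values from 1.37 to 1.79, and its 16 h call without E47-ER 16 h library 2 (adjusted p 0.0581) and on the 4 libraries of 16 h alone (adjusted p 0.104). Irf8 is also on the list of plasmacytoid dendritic cell genes. Of that list Ccr9, at 0.266 to 0.379 CPM in GFP and 0.648 to 2 CPM in E47-ER libraries, rose by 2.74 (SE 0.47, adjusted p 0.0312) at 16 h, a call lost when any library but those of GFP 16 h was left out. The summed level of this list, which also holds Bst2, was 138 and 138, 158 and 149, 168 and 190, and 185 and 178 CPM in the 4 groups. Itgax, a dendritic cell gene, gave 1.87 (adjusted p 0.133) at 16 h, and Csf1r, a macrophage gene at 0.0528 to 1.09 CPM, 2.73 (adjusted p 0.411) at 4 h. Summed levels in the 4 groups were 117 and 117, 109 and 149, 118 and 198, and 117 and 156 CPM for conventional dendritic cell genes, and 19.4 and 20.4, 19.9 and 25.3, 17.9 and 14.9, and 23.2 and 29.7 CPM for myeloid genes. Epcam, an epithelial gene, rose by 1.56 (SE 0.26, adjusted p 0.0285) at 16 h, a call lost for the same libraries as that of Ccr9. Irf3, which acts downstream of the sensors, ran from 70.2 to 89.9 CPM with no call.

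Among 74 tested interferon-stimulated genes outside the 34, 2 were called, both higher at 16 h. The median log2 fold change of the list was -0.05 at 4 h and 0.32 at 16 h, against -0.0043 and -0.0057 over all genes. In GFP 16 h the list's median log2 ratio of library 1 to library 2 was 0.40. How far the list's 16 h median rested on GFP 16 h library 2 was not tested. Lgals9, which encodes galectin-9, measured 160, 163, 285, 261, 159, 163, 480 and 436 CPM and rose by 1.51 (SE 0.13, adjusted p 0.00228), a call kept in 18 of 19 alternatives and lost on the 4 libraries of 16 h alone (adjusted p 0.131). Epsti1 measured 21.5, 19.3, 20.9, 18.5, 21.8, 18.8, 36.7 and 34.2 CPM and rose by 0.80 (SE 0.15, adjusted p 0.0466), a call lost whenever one of the libraries other than those of GFP 16 h was left out. Among 19 genes of MHC class I and antigen processing, Tapbpl, a peptide editor, measured 23.8, 16.4, 38.1, 42.5, 18.8, 17.8, 47.7 and 49.5 CPM and rose by 1.40 (SE 0.19, adjusted p 0.0141) at 16 h. Tapbpl was called in 12 of 19 alternatives, not when any 1 of the E47-ER libraries was left out, with adjusted p of up to 0.186. Tests named in this and the preceding 3 paragraphs are edgeR's quasi-likelihood test with adjustment over all 13644 genes.

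**Figure D5:**
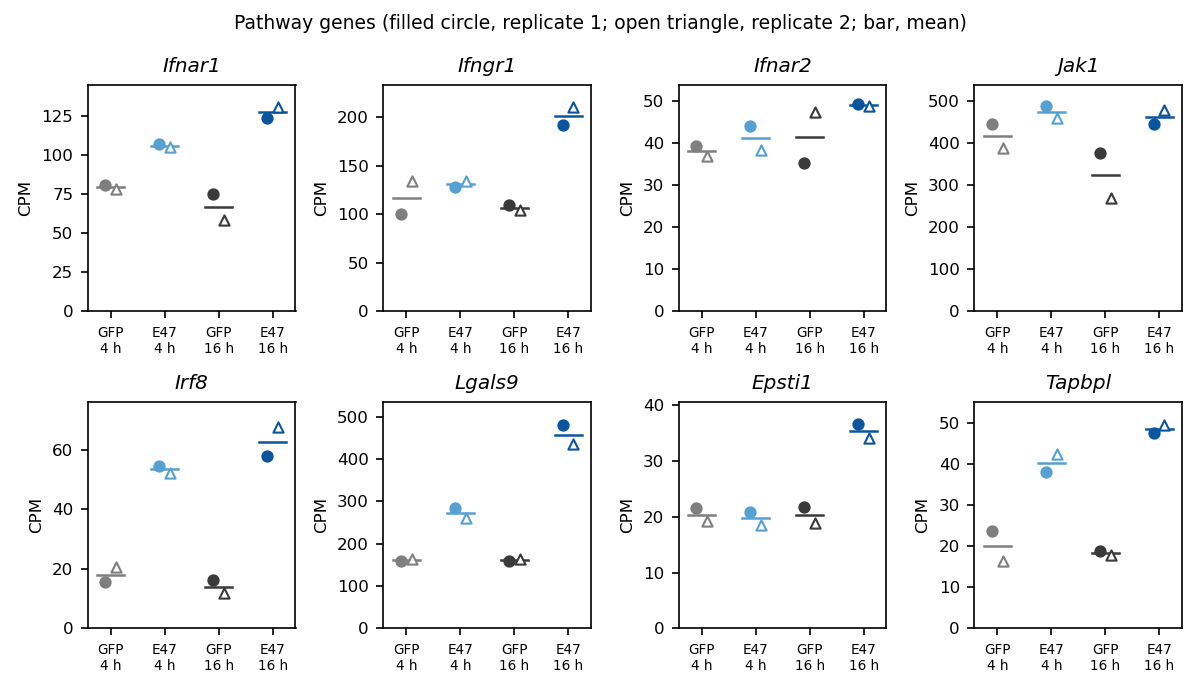
CPM of 8 genes of the interferon pathway outside the members in each library (filled circle, library 1; open triangle, library 2; bar, mean of 2), on axes from 0. Ifnar1, Jak1, Irf8, Lgals9 and Tapbpl have both E47-ER libraries above both GFP libraries at both times, and in most panels the 2 libraries of a group lie close together.

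The gap between libraries was also set beside the ISRE core, with no test. Over the 14 tested members with a match the median gap, averaged over the 4 groups, was 0.44 on the log2 scale with a range of 0.06 to 1.49, and over the 11 tested members with a promoter and no match it was 0.33 with a range of -0.13 to 1.29. Ifit1 with 2 matches had the widest gap (1.49), and Bst2, also with 2, one of the narrowest (0.06). Isg15 with 3 matches was at 0.20, and Cmpk2 without a match at 1.29.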

How the data were processed

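The authors deposited raw counts: whole numbers for each Ensembl gene in each library, not normalized. The submitters' processing notes name mm10 and DESeq2 with no role; the aligner, counting tool, strand setting and annotation were not given in the sources used here. Symbols, coordinates and lengths came from GENCODE M21 (GRCm38), which matched 50376 of 50686 rows; 1 of 21 listed sensing genes (Mb21d1) had no row under that symbol.

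The count analysis used edgeR 4.0.16 (R 4.3.3): filterByExpr with a minimum count of 10, TMM scaling, a robust quasi-likelihood fit with 1 mean per group over all 8 libraries, two-sided tests and Benjamini-Hochberg adjustment over 13644 genes, called at an adjusted p under 0.05. SE is the absolute log2 fold change over the square root of F. CPM are on TMM-scaled library sizes, and ratios between libraries use CPM + 0.5; 3 counts, the limit a count of 0 allows, are 0.159 to 0.399 CPM and cover counting error only. With 2 libraries a group, an exact permutation test of a single value cannot go below 0.333 (two-sided). Alternatives used RLE scaling, library totals, other filters, limma 3.58.1 (voom), DESeq2 1.42.0, blocks and left-out libraries. The fit was tested on simulated data. Full statistics were given for 21 named members, for any called member and, from each pathway list, for called genes and 11 listed genes as levels, except that some items are not reported here. The members and lists were chosen with earlier results of these data known. All 8 count columns were used.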

Additional observations from a re-analysis of the deposited data

How the results depend on the processing

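No member was called with RLE scaling, library totals only, DESeq2, a minimum count of 30, no robust dispersion, an adjusted p under 0.1 or either replicate block, in any comparison those settings gave. The causes of the changes listed here were not tested.

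With library totals only, 19 genes in all were called at 4 h and 0 over time in E47-ER cells, where a minimum count of 30 also called 0. DESeq2 called 109 genes at 4 h, 942 at 16 h and 20 over time in E47-ER cells. Voom called 405, 55 and 406 in the same order, with 2 members higher in the last (Isg20 and Irf1). Without a filter on low counts, 165 genes were called at 4 h, 1816 at 16 h, 53 in the difference, 305 over time under GFP and 53 over time under E47-ER, with 2 members higher (Gbp2 and Ddx58) and 1 lower (Isg15) at 16 h. Fitted on the 4 libraries of a time alone, 480 genes were called at 4 h, 2 of them members (Oasl1 and Xaf1, lower), and 6 at 16 h. An adjusted p under 0.1 gave 68 genes at 4 h and 500 at 16 h. For these settings the share of all genes called in each direction was not computed, so the member counts stand without one.

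The labels do not say whether equal library numbers pair the samples. The correlations between groups of the library 1 to library 2 differences ran from -0.11 to 0.25 over all genes, not all above 0.1, so the samples were treated as unpaired. Over the 33 members they were -0.061, 0.26, 0.32, 0.38, 0.56 and 0.69. The replicate block within each time called 11 genes at 4 h and 54 at 16 h, and the block across all libraries called 0 over time in E47-ER cells. Under the blocks the 4 h value of Stat2 was 0.0119 (all libraries) and 0.0205 (within time), and the 16 h value of Ifit1 was 0.0184 (within time).

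Of single members, Stat2 at 4 h was at 0.0321 in voom. Ifit1 at 16 h, near 0 in the report, was at 0.063 with library totals, 0.0839 in DESeq2, 0.0236 with no filter and 0.0181 on 4 libraries.

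Leaving out 1 library at a time gave 1 to 600 genes called at 4 h, 14 to 6828 at 16 h, 0 to 5007 in the difference, 0 to 5851 over time under GFP and 0 to 415 over time under E47-ER. Members called higher ranged from 0 to 9 at 16 h, 0 to 9 in the difference, 0 to 3 over time under GFP and 0 to 2 over time under E47-ER; members called lower from 0 to 2, 0 to 2 and 0 to 5 in the first 3 of these. The highest of these member counts came without GFP 16 h library 1, those over time under E47-ER also without GFP 16 h library 2. Without GFP 16 h library 1, 24.6% of all genes were called higher and 25.5% lower at 16 h. The shares were 18% and 18.7% in the difference and 22.4% and 20.5% over time under GFP. Over time under E47-ER 1.77% were called higher. That fit left 1 GFP library at 16 h, so no conclusion about the members is drawn from its calls. Member medians ranged from -0.104 to 0.869 at 16 h, 0.152 to 1.17 in the difference and -0.665 to 0.352 over time in GFP cells. The spread of a group reduced to 1 library was taken from the remaining groups, and the highest counts came without GFP 16 h library 1, apart from 600 at 4 h and 415 over time in E47-ER cells (without GFP 16 h library 2).

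Among the 21 members given with full statistics, these changed sign when 1 library was left out, and some of the remaining members did so too (Oas2 at 4 h from -1.88 to 0.744 without GFP 4 h library 1, Dhx58 at 16 h from 0.152 to -0.284 without GFP 16 h library 2). At 4 h the ranges were -0.301 to 0.343 for Stat2, -0.133 to 0.111 for Ddx58, -0.391 to 0.271 for Zbp1, -0.211 to 0.0872 for Eif2ak2, -0.598 to 1.73 for Oasl2, -1.04 to 0.177 for Oas3, -1.97 to 0.348 for Ifit3, -0.44 to 0.609 for Mx1, -0.254 to 0.542 for Gbp2 and -0.216 to 0.386 for Parp14. At 16 h they were -0.36 to 1.44 for Irf7, -0.493 to 1.02 for Ifih1, -0.103 to 0.217 for Eif2ak2, -0.555 to 1.6 for Oas3, -1.74 to 1.52 for Ifit1, -0.403 to 7.08 for Ifit3, -0.711 to 2.04 for Usp18, -0.77 to 1.45 for Rsad2, -0.104 to 0.284 for Isg20 and -0.723 to 1.46 for Rtp4. The upper value of Ifit3 is against a lone library with 0 counts and is no bound.

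With neither GFP 4 h library 1 nor GFP 16 h library 2, 1034 genes were called at 4 h (3 members higher: Gbp2, Oasl2 and Parp14), 1639 at 16 h (2 higher, Gbp2 and Irf1, and 2 lower, Bst2 and Ifih1), 98 in the difference, 7 over time under GFP and 901 over time under E47-ER (6 members higher). Of all genes, 4.51% were called higher and 3.06% lower at 4 h, and 5.94% and 6.08% at 16 h. Over time under E47-ER these shares were 3.45% and 3.15%. This fit left 1 GFP library at each time, so no conclusion about the members is drawn from its calls. Member medians were -0.105 in the difference and 0.552 over time in GFP cells. At 4 h Stat2 was at 0.348, Ddx58 at 0.116, Zbp1 at 0.276, Eif2ak2 at 0.0925, Oas3 at 0.188 and Ifit3 at 0.35. At 16 h Irf7 was at -0.36, Ifih1 at -0.493, Oas3 at -0.557, Ifit3 at -0.023, Usp18 at -0.318, Rsad2 at -0.151 and Rtp4 at -0.412. Depth limits the rarest members: Ifit3, Mx2, Oas2 and Ifi44 had 8 to 80 counts in all.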
